A study of Mus musculus with 9 samples.

Results

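The cytosolic ribosome is represented on these arrays by 49 probe sets for 35 genes, out of 12422 probe sets that are not controls. A probe set belonged if GEO's platform annotation gave it 1 gene symbol and that symbol began with Rpl or Rps as a ribosomal protein's does, with the Rps6k kinases left out. The rule uses symbols alone. Of the 35 genes, 15 encode proteins of the large subunit and 16 of the small subunit. The other 4 are paralog-like (Rpl39l, Rpl7l1, Rps27l and Rps4l), and RefSeq lists Rps4l as a transcribed pseudogene. RefSeq's mouse annotation holds 91 protein-coding genes that fit the same pattern, 34 of them on the arrays under 1 symbol, and also 324 pseudogenes.

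The study asked what NECA (5'-N-ethylcarboxamidoadenosine), an adenosine analog that activates adenosine receptors, does to RNA levels in TtT/GF cells, an established mouse cell line of pituitary folliculostellate origin. There were 3 groups of 3 arrays, each array from a replicate culture. One group was left untreated, and the others received NECA at 10 µM, one of them for 30 min and the other for 120 min. All cultures were kept in medium with 2% heat-inactivated fetal bovine serum, and all are 1 cell line. Neither a vehicle nor an incubation time is given for the untreated cultures, so an effect of handling and one of NECA cannot be told apart at either time. Fewer cells of a kind and less RNA per cell cannot be told apart in such bulk RNA either.

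A ribosome has a small subunit, which reads the mRNA, and a large subunit, which joins the amino acids. Each holds ribosomal RNA and many proteins that are needed in equal amounts, and their mRNAs are among the most abundant and most stable of a mammalian cell. Many of these mRNAs begin with a 5′ terminal oligopyrimidine (TOP) tract, a C followed by a run of pyrimidines, through which the mTOR pathway and the LARP1 protein set how much of the mRNA is translated. An array measures the amount of mRNA and not its translation.

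To show the feature that many of these genes share, 30 bases around annotated transcription start sites are printed here from RefSeq (GRCm38.p6), 15 bases on each side of the start. Capitals mark a C within 5 bases of the start with at least 4 pyrimidines after it, read on the gene's strand alone. The first 4 windows hold such a tract. The last 3 hold none and belong to genes whose signals are described at length below, Rps4x and Rps3a1 at 30 min and Rps3 at 120 min.
Rps10 (chr17:27635230-27635259, minus strand): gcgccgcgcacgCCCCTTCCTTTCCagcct
Rps18 (chr17:33955651-33955680, minus strand): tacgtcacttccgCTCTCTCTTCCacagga
Rpl7a (chr2:26910792-26910821, plus strand): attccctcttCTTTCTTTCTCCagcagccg
Rps27 (chr3:90213634-90213663, minus strand): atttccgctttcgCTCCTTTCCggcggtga
Rps4x (chrX:102189377-102189406, minus strand): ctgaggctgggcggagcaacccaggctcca
Rps3a1 (chr3:86142654-86142683, minus strand): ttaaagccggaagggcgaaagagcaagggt
Rps3 (chr7:99483695-99483724, minus strand): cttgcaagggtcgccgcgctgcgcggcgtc

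The promoter table held 28 of the 35 genes, with 37 annotated starts between them. A tract was found for 11 of the 28 (39.3%), against 3767 of 17492 protein-coding genes (21.5%) in the same window. When the tract had to begin at the annotated start itself, the shares were 17.9% and 2.67%, and with a shift of up to 10 bases they were 60.7% and 34.9%. The share therefore depends on how far the annotated start may lie from the true one, and the absence of the letters in a window says nothing about how an mRNA is translated. Among the brightly measured genes, the 6 with a tract were Rpl13a, Rpl19, Rpl7a, Rps10, Rps18 and Rps24. Their changes on the log2 scale ran from -0.22 to 0.14 at 30 min and from -0.03 to 0.15 at 120 min. Both lower ends belong to the probe set named Rps24 (97696_r_at), and that name is uncertain, as described below. The 12 brightly measured genes whose windows held no tract ran from -0.48 to 0.50 and from 0.00 to 0.28. These are ranges of changes that are described below, and no test was made between them.

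Signal was uneven among the 49 probe sets, and a group with high signals stood apart from the rest. In 22 probe sets for 20 genes, 11 of each subunit, the mean signal over the 9 arrays was 559 to 6382. The next brightest was Rps27 (96301_at) at 195, so a mean of 500 was used to call a probe set bright, a limit placed after the signals were seen. Another 11 probe sets had means of 17.3 to 195, 9 of them below 100, and passed the filter on low signals. The filter required a signal above 20.5 on at least 3 of the 9 arrays. It left 33 of the 49 (67.3%) for 27 genes in the test, against 63.2% of all probe sets. The 16 that did not pass had means of 1.55 to 18.8, and 8 genes were left with no tested probe set: Rpl32, Rpl38, Rpl39, Rpl39l, Rps14, Rps15, Rps20 and Rps27l. A low signal from a probe set does not show that the gene is silent, as the genes with several probe sets show.

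The most extreme case was Rps4x, a small-subunit protein gene on the X chromosome with 5 probe sets. Their mean signals were 2907 (100780_at), 30.5 (161654_r_at), 10.5 (162244_r_at), 9.59 (162498_r_at) and 3.19 (162229_at). Rpl7, a large-subunit protein gene, had probe sets at 2881 (97695_s_at) and 6.39 (97697_at). Rps28 had them at 5061 (98085_f_at), 3987 (100758_at) and 16.2 (98086_r_at), and Rps24 at 4494 (97696_r_at) and 18.8 (93121_at). In all, 10 of the 35 genes had more than 1 probe set, and each was kept apart. The suffixes _f, _s, _i and _r are the manufacturer's marks for probe sets that share sequence with other transcripts or whose probes met the design rules incompletely. The probe set of Rpl7 with the high signal and that of Rps24 with the high signal are annotated to the same sequence record, so the name of the latter is uncertain. A further 39 probe sets carried a ribosomal protein symbol among several symbols. They are not named here, and 24 of the 35 that were tested were bright.

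The arrays were comparable in scale and differed a little in other respects. The trimmed mean of each array was 100.056 to 100.065. The median signal over probe sets that are not controls was 37.6 ± 1 (SD, n = 3) in untreated cells. After NECA it was 34.7 ± 1 and then 34.6 ± 1.6 (two-sided exact permutation p = 0.1 and 0.2 against untreated, where 0.1 is the smallest p that 3 against 3 allows). The ratio of the Gapdh control's 3′ to 5′ probe sets, which reflects RNA integrity and labelling, was 0.995 ± 0.028, 0.921 ± 0.038 and 0.947 ± 0.029 (exact p = 0.1 and 0.2). Its lowest value, 0.879, was on NECA 30 min replicate 3. Markers of folliculostellate cells gave a mixed picture. In untreated cells the brightest probe sets of Gja1, Anxa1 and Cst3 had mean signals of 1135, 2102 and 2026, while S100b and Gfap were at 57.8 and 31.5. In the list of pituitary hormone cell markers, Lhb was at 102, Gh at 86.4, Prl at 51.2 and Pomc at 26.5, while Tshb and Fshb were at 11.0 and 7.84. The 3 probe sets of the leukocyte gene Ptprc had untreated means between 0.456 and 2.29, while Cd68 and Cd14 were at 408 and 360. The lists of folliculostellate, hormone cell, endothelial and leukocyte markers had 13, 6, 2 and 7 tested probe sets. Of these, 0 passed the test (limma, adjusted p under 0.05) in either comparison with untreated cells. Among all tested probe sets 0.357% passed at 30 min and 3.38% at 120 min, so with so few markers this count says little.

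Bright ribosomal protein probe sets took 3.46, 3.85 and 3.64% of an array's summed signal in untreated cells, 3.82, 3.41 and 3.81% at 30 min, and 3.73, 4.13 and 3.84% at 120 min. The means were 3.65 ± 0.19%, 3.68 ± 0.24% and 3.9 ± 0.21% (SD, n = 3 each). The ranges of the 3 groups overlapped. The median of the same 22 probe sets, as a log2 difference from the untreated mean, was -0.078, 0.03 and 0.005 on the untreated arrays, 0.16, -0.096 and 0.202 at 30 min, and 0.049, 0.186 and 0.139 at 120 min. At 30 min, replicate 2 was thus the lowest of all 9 arrays and replicate 3 the highest. At 120 min each array lay above each untreated array. All bright probe sets on the arrays, whatever their gene, had medians of -0.045, 0.022 and 0.028 on the untreated arrays. These were 0.127, -0.015 and 0.122 at 30 min and 0.035, 0.123 and 0.139 at 120 min. So for all bright probe sets too, each 120 min array lay above each untreated array. The 24 bright probe sets with a ribosomal protein symbol among several did not separate in this way. Their medians were -0.08, 0.061 and 0.04 on the untreated arrays and 0.017, 0.24 and 0.123 at 120 min.

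**Figure D1:**
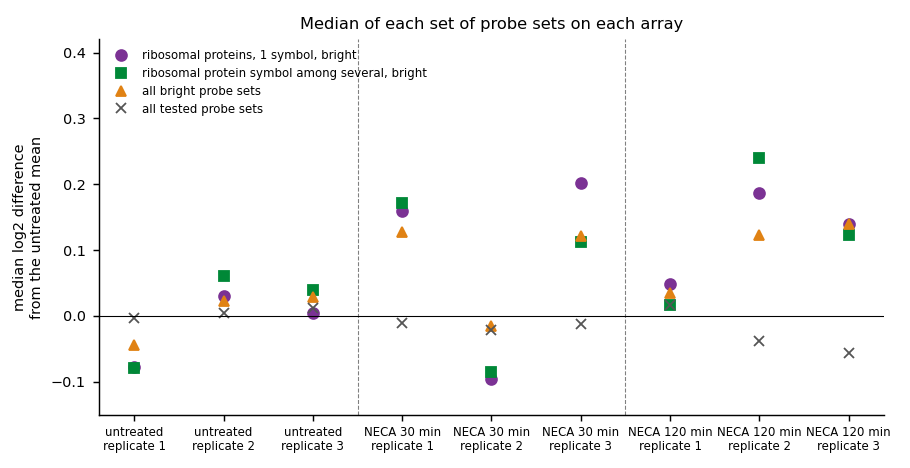
Median log2 difference from the untreated mean (vertical axis) on each of the 9 arrays (horizontal axis), for 22 bright ribosomal protein probe sets (circles), 24 bright probe sets with such a symbol among several (squares), all 680 bright probe sets (triangles) and all 7851 tested probe sets (crosses). The medians shown as circles run from -0.096 on NECA 30 min replicate 2 to 0.202 on NECA 30 min replicate 3. Those shown as squares reach 0.24, on NECA 120 min replicate 2. The median of all bright probe sets is also lowest within the 30 min group on replicate 2, at -0.015.

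The first comparison asked which ribosomal protein mRNAs had changed 30 min after NECA. At that time 0 of the 33 tested probe sets passed as higher and 0 as lower (limma, adjusted p under 0.05), where 28 of all 7851 tested probe sets did, 0.357%. At an unadjusted p under 0.05 the members numbered 2 above and 3 below untreated cells, beside 3.87% and 4.7% of all tested probe sets (8.57% in either direction). The median change of the 33 was 0.05 on the log2 scale, against -0.04 for all tested probe sets, and 19 of the 33 were above 0, beside 44.3%. For the 22 bright members it was 0.06, the same as for all 680 bright probe sets, and large- and small-subunit genes were alike at 0.07 and 0.05. The arrays of the groups did not overlap for 1 member that was higher and 5 that were lower, beside 6.11% and 8.65% of all tested probe sets. Without the probe set named Rps24, which shares its record with one of Rpl7, 4 were lower.

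The bright members were measured closely enough to bound most changes. Their median standard error was 0.13 on the log2 scale, close to the 0.14 of all 680 bright probe sets. It was 0.18 for all tested probe sets and 0.28 for the 11 dimmer members. The 95% interval of each of the 22 lay within a 2-fold change in either direction, the farthest bound being 0.96, and for 18 of the 22 it lay within 1.5-fold. Over all 33 tested members the counts were 29 and 22, and among all tested probe sets the shares were 90.1% and 53.5%. For the 680 bright probe sets the counts were 653 and 498. Of the 11 dimmer members 7 had an interval within 2-fold.

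Among large-subunit genes, Rpl10a, which encodes a protein of the L1 stalk through which spent tRNA leaves, had the smallest p above 0. Rpl10a (100711_at) gave signals of 1708, 1746 and 1783 in untreated cells, 2195, 1820 and 2244 at 30 min, and 1805, 1936 and 1916 at 120 min. Each treated array lay above each untreated one at both times. The change at 30 min was 0.25 ± 0.11 (log2, SE; adjusted p = 0.57), and the gene's other probe set (161327_f_at) gave 0.15 ± 0.13 with overlapping arrays. Rpl6 (96962_at) was at 0.16 ± 0.12 and Rpl19 (97483_at), of the large subunit too, at 0.14 ± 0.13, both with overlapping arrays. Rpl7 (97695_s_at) pointed the other way, with 3071, 3003 and 3158 in untreated cells, 2581, 2930 and 1961 at 30 min, and 2819, 3413 and 2987 at 120 min. All 3 arrays at 30 min lay below the untreated ones, replicate 2 by little, and the change was -0.32 ± 0.14 (adjusted p = 0.57).

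Among the bright members, small-subunit genes held the widest differences at 30 min. Rps4x (100780_at) gave 3101, 3222 and 3177 in untreated cells, 2198, 2996 and 1774 at 30 min, and 3124, 3529 and 3045 at 120 min. Its 30 min arrays all lay below both other groups, replicates 1 and 3 clearly and replicate 2 by little. The change from untreated cells was -0.48 ± 0.16 (95% interval -0.83 to -0.13) with an adjusted p of 0.531, the lowest among members. Over 21 alternative settings the adjusted p ran from 0.0226 to 0.996 and passed 0.05 under 2. Without NECA 30 min replicate 2 the change was -0.68 (adjusted p = 0.0226), and with arrays weighted by quality it was -0.50 (adjusted p = 0.0376). Under these settings calls over all tested probe sets rose too, from 28 higher and 0 lower to 39 and 46 and to 83 and 95. With the Gapdh ratio as a covariate the change was -0.19.

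Rps3a1 (101664_at), whose protein lies near the mRNA exit of the small subunit, gave 2568, 2651 and 2690 in untreated cells, 3096, 2582 and 1345 at 30 min, and 2729, 3219 and 3113 at 120 min. NECA 30 min replicate 3 alone was far below the rest, and replicate 1 was above all untreated arrays. The change was -0.25 ± 0.23 (adjusted p = 0.704), and without NECA 30 min replicate 3 its sign turned, to 0.10. The probe set named Rps24 (97696_r_at) gave 4442, 5126 and 4659, then 3930, 4266 and 3994 at 30 min and 4273, 5577 and 4178 at 120 min. Each 30 min array was below each untreated array, by -0.22 ± 0.12 (adjusted p = 0.611). As it shares a sequence record with the Rpl7 probe set, these may not be separate measurements of different genes.

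Rps19, the gene most often mutated in the inherited anaemia named after Diamond and Blackfan, had the largest change above 0. Rps19 (94068_at) gave 1489, 1111 and 1906 in untreated cells, 2113, 1653 and 2578 at 30 min, and 1845, 2007 and 1452 at 120 min. The groups overlapped, since untreated replicate 3 was above NECA 30 min replicate 2. The change at 30 min was 0.50 ± 0.21 (95% interval 0.04 to 0.96; adjusted p = 0.552). It was 0.30 without untreated replicate 2 and 0.69 without untreated replicate 3. Its spread in untreated cells was the largest of the bright members, with a coefficient of variation of 26.5%. Rps7 (101212_at), a small-subunit protein that can also bind the p53 regulator Mdm2, was at 0.17 ± 0.13, and Rpsa (97750_at), also known as the laminin receptor, at 0.16 ± 0.13. Rps27 (96301_at), a zinc-finger protein of the small subunit with a mean signal of 195, was at 0.14 ± 0.14. With the Gapdh ratio as a covariate the value for Rps27 was -0.05.

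**Figure D2:**
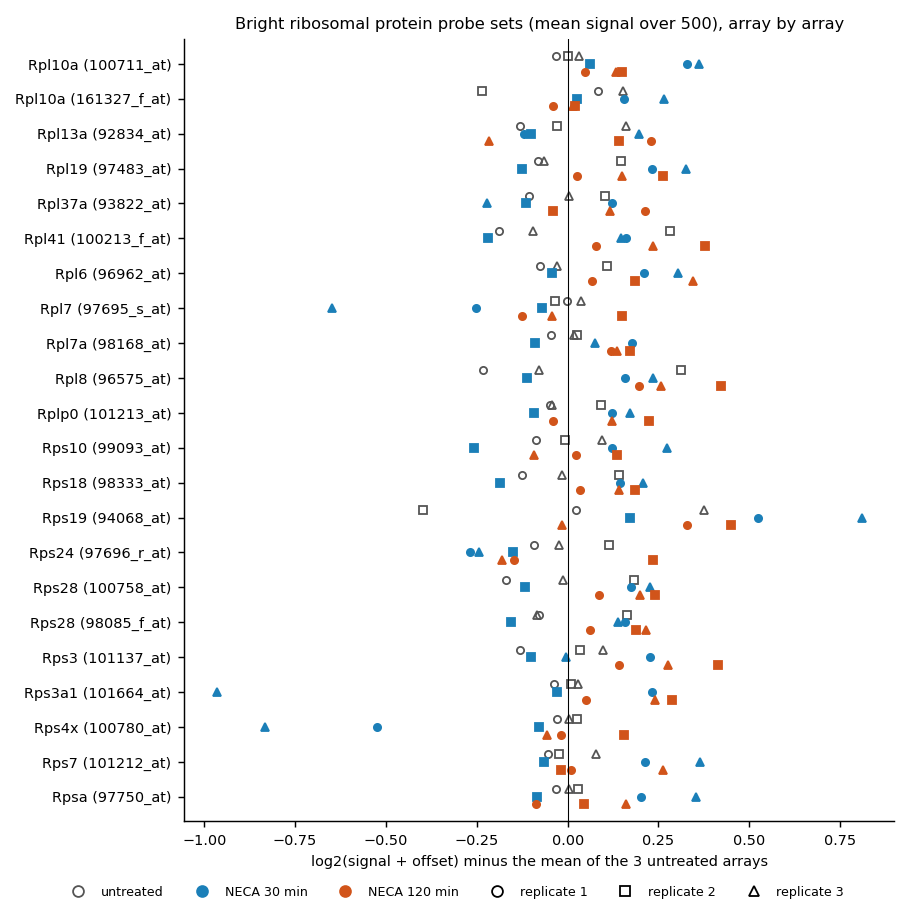
Log2(signal + 7.93) of each bright ribosomal protein probe set on each array minus its mean over the 3 untreated arrays (horizontal axis), 1 line per probe set (vertical axis), with colour for the group and shape for the replicate number. Most points lie within 0.5 of the untreated mean, and NECA 30 min replicate 3 (blue triangles) reaches from -0.97 for Rps3a1 to 0.81 for Rps19.

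The second comparison asked the same at 120 min. Again 0 of the 33 passed as higher and 0 as lower, at a time when 265 of all tested probe sets passed (3.38%: 144 higher, 1.83%, and 121 lower, 1.54%). At an unadjusted p under 0.05 there was 1 member above and there were 2 below untreated cells, beside 6.42% and 8.93% of all tested probe sets. The median change was 0.08 and 22 of the 33 were above 0, beside 43.5%. For the bright members the median was 0.12, against 0.10 for all bright probe sets. Large- and small-subunit genes were again alike, with medians of 0.11 and 0.12. Of the 22 bright members, 19 lay above 0, beside 456 of the 680 bright probe sets (67.1%). This count moved with the scaling. After quantile normalization it was 13 with a median of 0.015. With arrays centred on bright probe sets that are no member it was 15 with a median of 0.059. Bright here meant above the 90th percentile of tested mean signals, and probe sets with several symbols counted as no member. With arrays centred on the median of tested probe sets the count was 22 with a median of 0.166. The mean of the arrays' median signals, given above, was lower in both treated groups.

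The arrays of the groups did not overlap for 5 members that were higher at 120 min and 1 that was lower, beside 12.3% and 13% of all tested probe sets. The intervals of all 22 bright members were again within a 2-fold change, with a farthest bound of 0.71, and those of 19 within 1.5-fold. Over all 33 tested members the counts were 28 and 22, beside 86.8% and 49.2% of all tested probe sets. For the 680 bright probe sets the counts were 644 and 474.

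Rps3, whose protein lines the mRNA entry channel of the small subunit, had the smallest p above 0. Rps3 (101137_at) gave 2215, 2481 and 2596 in untreated cells, 2841, 2263 and 2418 at 30 min, and 2676, 3231 and 2940 at 120 min. Each 120 min array was above each untreated array, by 0.28 ± 0.12 (adjusted p = 0.309). Rps3a1 had the same separation at 120 min, by 0.19 ± 0.23. The 2 bright probe sets of Rps28, a small-subunit gene, gave 0.17 ± 0.12 (100758_at) and 0.16 ± 0.12 (98085_f_at) with overlapping arrays, and the latter was at 0.00 after quantile normalization. The probe set named Rps24 (97696_r_at) was at -0.03 ± 0.12.

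In the large subunit, Rpl8, whose protein reaches toward the peptidyl transferase centre, gave 3550, 5177 and 3950 in untreated cells, 4651, 3860 and 4913 at 30 min, and 4780, 5592 and 4991 at 120 min. Untreated replicate 2 was higher than 2 of the 120 min arrays, so the groups overlapped, and the 120 min change of Rpl8 (96575_at) was 0.29 ± 0.15 (adjusted p = 0.369). Rpl41 (100213_f_at), which encodes a very short basic peptide, was at 0.23 ± 0.15. Rpl6 (96962_at) was at 0.20 ± 0.12. Rpl7a (98168_at) gave 1721, 1808 and 1798 in untreated cells and 1929, 2001 and 1951 at 120 min. These did not overlap, and the change was 0.14 ± 0.10 (adjusted p = 0.531). The bright members not named so far were Rplp0, whose protein is the base of the stalk that recruits elongation factors, Rpl13a and Rpl37a of the large subunit, and Rps10 and Rps18 of the small one. They lay between -0.07 and 0.07 at 30 min and between 0.02 and 0.12 at 120 min, with overlapping arrays.

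**Figure D3:**
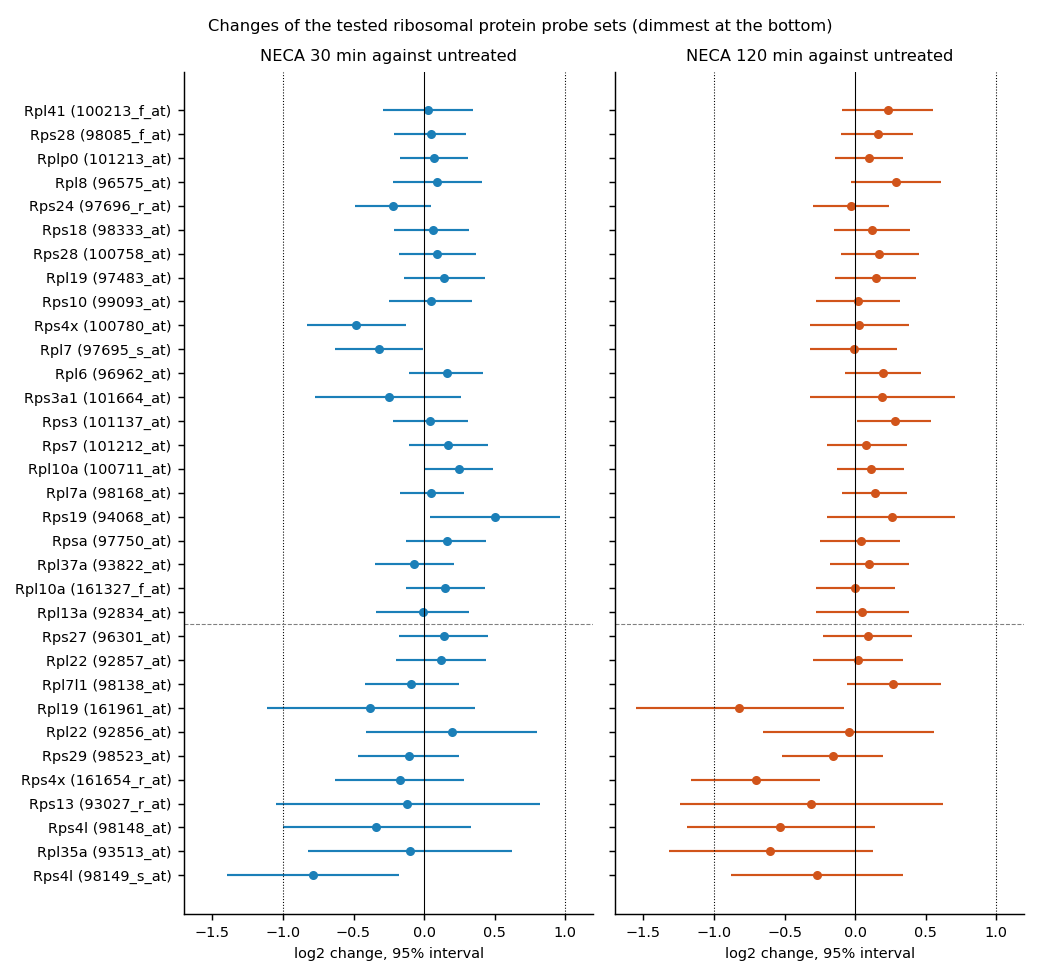
Log2 change from untreated cells (points) with its 95% interval (lines) for the 33 tested ribosomal protein probe sets at 30 min (left) and 120 min (right), ordered by mean signal, with the dashed line separating the 22 bright ones above from the 11 dimmer ones below. Dotted lines mark a 2-fold change, which each bright probe set's interval stays within, while the intervals of several dimmer ones cross it.

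**Figure D4:**
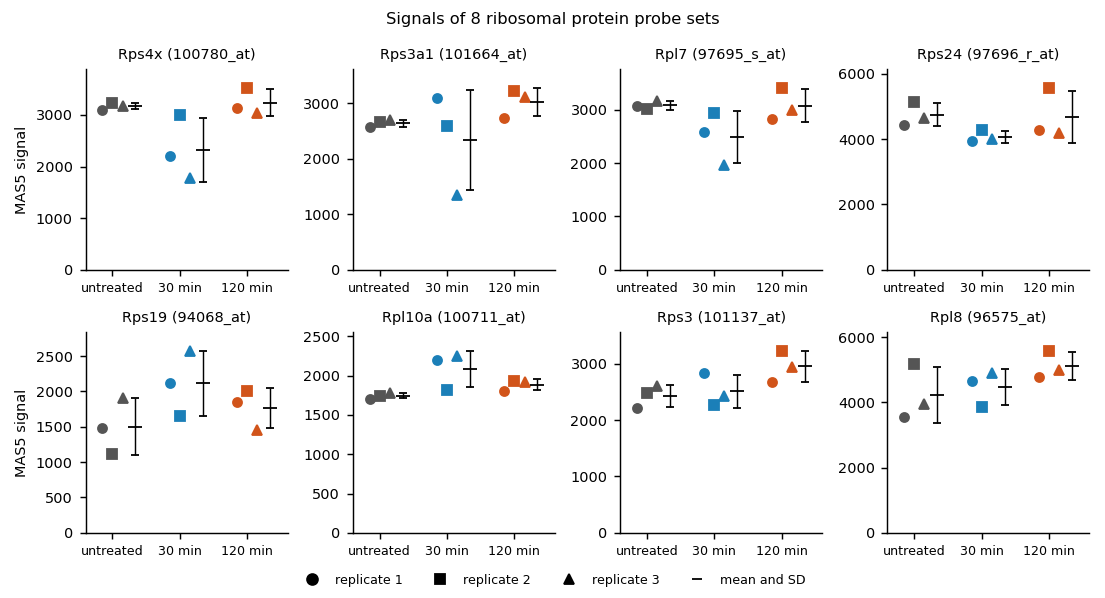
Deposited MAS5 signal (vertical axis, from 0) on each array by group (horizontal axis) for 8 bright ribosomal protein probe sets, with the mean and SD of 3 arrays beside them. The 30 min arrays of Rps4x and Rpl7 lie below the untreated ones, those of Rps3a1 are split between 3096 and 1345, and the 120 min arrays of Rps3 lie above the untreated ones.

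The last comparison set 120 min against 30 min, and both of its groups also enter the comparisons above. Here too 0 of the 33 passed in either direction, beside 233 of all tested probe sets (2.97%: 1.35% higher and 1.62% lower). A moderated F-test over the 3 groups called 0 of the 33, beside 243 (3.1%). At an unadjusted p under 0.05 there were 3 above and 1 below, beside 6.02% and 6.97%. The arrays of the groups did not overlap for 2 members in each direction, beside 7.44% and 9.07%. The median change was 0.03 for all 33 and 0.07 for the bright members, with 18 of the 33 above 0, beside 48.6%, and 16 of the 22. After quantile normalization 10 of the 22 were above 0. Intervals lay within 2-fold for 29 and within 1.5-fold for 21 of the 33, beside 87.6% and 52.8%.

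Rps4x (100780_at) again had the lowest adjusted p, with a change of 0.51 ± 0.16 from 30 to 120 min (adjusted p = 0.165) and no overlap. Over 21 alternatives the adjusted p ran from 0.0067, without NECA 30 min replicate 2, to 0.423. Its level at 120 min differed from untreated cells by 0.03 ± 0.16. Rps3a1 was at 0.45 ± 0.23, Rpl7 (97695_s_at) at 0.32 ± 0.14, Rps3 at 0.24 ± 0.12, Rpl41 at 0.20 ± 0.15 and the probe set named Rps24 at 0.19 ± 0.12. On the other side Rps19 was at -0.25 ± 0.21, Rpl10a at -0.14 ± 0.11 (100711_at) and -0.15 ± 0.13 (161327_f_at), and Rpsa at -0.12 ± 0.13. The arrays of Rpl10a (161327_f_at) did not overlap. None of these changes passed, with an adjusted p of 0.373 or above for those named here after Rps4x.

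The 30 min arrays of the bright members spread more widely than the others, a difference that was not tested. The median coefficient of variation of the bright members was 7.32% in untreated cells, 12.6% at 30 min and 8.56% at 120 min. At 30 min, replicate 2 was the lowest of its group for 16 of the 22 bright members, and replicate 3 was the highest for 13. The 4 for which replicate 3 was instead the lowest were Rps4x, Rps3a1, Rpl7 and Rpl37a. Untreated replicate 1 was the lowest of its group for 18, and NECA 120 min replicate 2 the highest of its group for 16. Among all tested probe sets, the correlation between arrays of the 30 min group was 0.947 to 0.969, across genes that are not independent replicates, against 0.974 to 0.978 in untreated cells and 0.967 to 0.972 at 120 min. The lowest of these values was between replicates 2 and 3.

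The dimmer members behaved less evenly. Of these 11, 3 were above 0 at each time, and their median change was -0.11 at 30 min and -0.27 at 120 min. Rps4x (161654_r_at), a dim probe set of the gene described above, gave 35.9, 41.2 and 36.4 in untreated cells, 30.8, 30.3 and 37.0 at 30 min, and 28.0, 21.4 and 13.2 at 120 min. The 120 min arrays lay below all the others, by -0.70 ± 0.21 from untreated cells (adjusted p = 0.11, the lowest of the members at 120 min). Without NECA 120 min replicate 1 the change was -0.88 (adjusted p = 0.0483). With array weights, under which calls over all tested probe sets rose to 220 higher and 202 lower, it was -0.74 (adjusted p = 0.0457). Over the 20 alternatives its adjusted p ran up to 0.335. Between 30 and 120 min it was -0.53 ± 0.21 where the bright probe set of the same gene was 0.51 ± 0.16, so they disagreed in direction. The dim one has signals near the filter.

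Rpl19 (161961_at), another dim probe set of a gene with a bright one, gave 49.8, 56.3 and 66.8 in untreated cells, 46.0, 57.5 and 27.9 at 30 min, and 33.8, 12.5 and 51.3 at 120 min. Its groups overlapped at both times, with changes of -0.38 ± 0.34 and -0.82 ± 0.34 (adjusted p = 0.274 at 120 min), while the bright probe set of Rpl19 was at 0.14 and 0.15. Rpl35a (93513_at), a large-subunit gene also mutated in Diamond-Blackfan anaemia, was at -0.60 ± 0.33 at 120 min. Rps13 (93027_r_at) was at -0.31 ± 0.43 and Rps29 (98523_at), a zinc-finger protein of the small subunit, at -0.16 ± 0.17. Rpl22, whose protein is known for roles in T cells outside the ribosome, had probe sets at 0.02 ± 0.15 (92857_at) and -0.04 ± 0.28 (92856_at) at 120 min, the latter at -0.24 ± 0.28 from 30 to 120 min.

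Among the paralog-like genes, Rpl7l1, related to Rpl7 and found in ribosome precursors, gave 59.7, 55.8 and 60.4 in untreated cells, 63.3, 58.4 and 44.1 at 30 min, and 63.3, 74.8 and 80.3 at 120 min. The 120 min arrays of Rpl7l1 (98138_at) lay above the untreated ones, by 0.27 ± 0.15 (adjusted p = 0.425), and above those at 30 min, by 0.36 ± 0.15 (adjusted p = 0.339). The pseudogene Rps4l, named for its likeness to Rps4, gave 23.6, 22.9 and 22.4 in untreated cells, 5.82, 13.2 and 11.5 at 30 min, and 19.8, 26.0 and 9.97 at 120 min on probe set 98149_s_at. Its 30 min arrays did not overlap the untreated ones, with a change of -0.79 ± 0.28 (adjusted p = 0.543). With array weights, under which calls over all tested probe sets rose to 83 higher and 95 lower, that was -1.05 (adjusted p = 0.0455). The other 19 alternatives did not pass. Its second probe set (98148_at) gave 31.5, 34.2 and 29.6 in untreated cells and 24.9, 24.0 and 21.6 at 30 min, without overlap and with a change of -0.34 ± 0.31. At 120 min the Rps4l probe sets were at -0.27 ± 0.28 and -0.53 ± 0.31. Rpl39l and Rps27l were not tested, with mean signals of 4.83 and 1.55.

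The other probe sets that did not pass the filter are described by signal alone. Rps15 (100602_at) gave 10.5, 12.2 and 5.53 in untreated cells, 3.62, 2.19 and 5.39 at 30 min, and 9.09, 11.2 and 6.61 at 120 min. Rps20 (94039_at) gave 5.95, 10.6 and 10.6, then 2.25, 4.67 and 2.75, then 3.43, 6.4 and 9.2. In both, the 30 min arrays lay below the untreated ones. Rpl38 had arrays below the untreated ones at both times on 99627_r_at (17.1, 21.7 and 19.0, then 14.4, 9.71 and 11.8, then 16.4, 14.4 and 12.5) and above them at 30 min on 99626_i_at (2.04, 2.61 and 1.66, then 4.45, 3.45 and 2.78), so its probe sets disagreed. Rpl32 and Rps29 (162335_at) had 120 min arrays beyond the untreated ones, below and above, at mean signals of 7.05 and 12.1. Rpl39 and Rps14 overlapped throughout, at mean signals of 11.1 and 15.5. None of these was tested, since their signals were near or below the filter of 20.5.

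The 35 tested probe sets with a ribosomal protein symbol among several gave a separate view of the same family. Of them 0 passed in each comparison. The 24 bright ones had medians of 0.09 at 30 min and 0.13 at 120 min, with 16 and 22 above 0. Their medians per array, given above, overlapped between the 120 min and untreated groups. For all bright probe sets the medians were 0.06 and 0.10, with 61% and 67.1% above 0. The other scalings, which moved the same counts for the members, were not applied to this set.

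Genes of ribosome production, of translation and its control, and of the mitochondrial ribosome were followed in 4 further lists. Ribosome biogenesis factors and RNA polymerase I subunits, which produce and process ribosomal RNA, counted 56 tested probe sets for 51 genes. At 30 min 0 passed, and at 120 min 3 rose and 1 fell, beside 1.83% and 1.54% of all tested probe sets. The median change at 120 min was 0.14, against -0.04 for all tested probe sets. Rrp1b, a nucleolar factor of rRNA processing, rose from 85.4, 91.1 and 77.4 in untreated cells to 143, 158 and 178 at 120 min, by 0.86 ± 0.13 (adjusted p = 0.00257). Rrs1, which brings the 5S ribosomal RNA into the large subunit, rose from 173, 189 and 179 to 304, 297 and 260, by 0.64 ± 0.12 (adjusted p = 0.012). Wdr43, a component of the small-subunit processome, rose by 0.78 ± 0.17 (adjusted p = 0.0275), and Taf1b, a subunit of the factor that loads RNA polymerase I, fell by 0.96 on the log2 scale (SE 0.22, adjusted p = 0.0377). Leaving out 1 array at a time ended the call of Rrs1 for 2 arrays, replicate 1 of the untreated group and replicate 2 of the 120 min group, with an adjusted p of up to 0.0735. It ended that of Wdr43 for 4, replicates 2 and 3 of the untreated group and replicates 1 and 3 of the 120 min group, with an adjusted p of up to 0.14. The call of Taf1b ended without any 1 of the 6 untreated or 120 min arrays (up to 0.168) and after quantile normalization (0.0508), and that of Rrp1b held in 9 of 9 cases.

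The list of the mTOR and S6 kinase pathway and of translation repressors had 23 tested probe sets for 19 genes. Ddit4, a stress-induced inhibitor of mTOR complex 1, gave 267, 232 and 305 in untreated cells, 826, 773 and 977 at 30 min, and 469, 485 and 567 at 120 min. It rose by 1.65 ± 0.14 at 30 min (adjusted p = 0.000164) and was still 0.90 ± 0.14 above untreated cells at 120 min (adjusted p = 0.0034). Myc, a transcription factor that drives ribosome production, gave 237, 180 and 230, then 265, 280 and 283, then 87.4, 87.6 and 81.0. It fell by 1.25 on the log2 scale at 120 min (SE 0.13, adjusted p = 0.000152). Eif2ak4, the kinase GCN2, which slows initiation when amino acids are short, gave 57.1, 34.8 and 45.2, then 48.6, 53.6 and 51.1, then 13.1, 19.5 and 20.8. It fell by 1.05 at 120 min (SE 0.19, adjusted p = 0.00983), a call that ended without untreated replicate 1 (adjusted p = 0.0604). In all, 1 of the list's 23 probe sets passed at 30 min and 3 at 120 min, beside 0.357% and 3.38% of all tested probe sets. The list was chosen with earlier results of these data known, and it includes Ddit4 and Myc. Its share of calls therefore cannot be read as a result about the pathway.

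A list of translation factors and of known TOP mRNAs counted 42 tested probe sets for 31 genes. It was not checked which of the translation factors have a TOP tract. Of the 42, 0 passed at 30 or 120 min, with medians of -0.07 and -0.02. From 30 to 120 min 2 of the 42 rose and 0 fell, beside 1.35% and 1.62% of all tested probe sets. Both belong to Etf1, the factor that releases the finished protein at a stop codon. Etf1 (96755_at) gave 336, 249 and 317 in untreated cells, 232, 349 and 161 at 30 min, and 510, 576 and 454 at 120 min, and the change from 30 to 120 min was 1.09 ± 0.23 (adjusted p = 0.0252). For Etf1 (96754_s_at) it was 0.71 ± 0.16 (adjusted p = 0.0372). The first call ended without NECA 30 min replicate 1 or 3 or any 1 array at 120 min (adjusted p up to 0.109), and the second in 8 of 9 cases, all but NECA 30 min replicate 2 (up to 0.14). At 120 min against untreated cells the smallest p-values of the list belonged to other Etf1 probe sets (98608_at, 0.58, adjusted p = 0.0531; 160451_at, 0.57, adjusted p = 0.0597) and to the initiation factor gene Eif5 (160265_at, -0.79, adjusted p = 0.119).

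Mitochondrial ribosomal proteins, which belong to the separate ribosome inside mitochondria, counted 68 tested probe sets for 59 genes. Of them 0 passed in each comparison, with medians of 0.09 at 30 min and 0.11 at 120 min. The smallest p at 120 min belonged to Mrps12 (98547_at), with 93.9, 79.0 and 124 in untreated cells and 147, 166 and 201 at 120 min. These arrays did not overlap, and the change was 0.76 ± 0.19 (adjusted p = 0.0603). Mrps34 (95730_at) followed with 0.50 ± 0.15 (adjusted p = 0.109) and Mrps25 (104234_at) with 0.64 ± 0.23 (adjusted p = 0.193). Fau, which encodes a small-subunit protein joined to a ubiquitin-like domain, had signals of 17.1, 19.4 and 14.2 in untreated cells and was not tested.

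**Figure D5:**
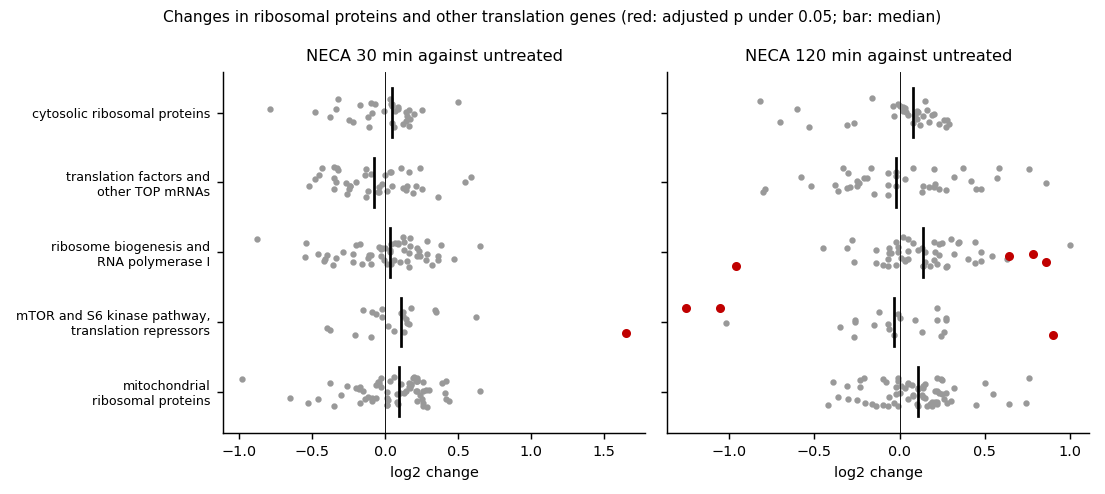
Log2 change from untreated cells (horizontal axis) at 30 min (left) and 120 min (right) for each tested probe set of the cytosolic ribosomal proteins and of 4 other lists (vertical axis, with vertical scatter added for legibility). Bars mark medians and red points the probe sets with an adjusted p under 0.05, of which the ribosomal proteins have 0, while Ddit4 stands at 1.65 at 30 min and Myc at -1.25 at 120 min.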

How the data were processed

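Total RNA of 9 cultures was labelled and hybridised to Affymetrix MG_U74A v2 arrays, per the labels. The deposited values are linear MAS5 intensities, 1 for each probe set on each array, per the submitters' processing notes; the version and the detection calls are not given in the sources used here. Each deposited array has nearly the same trimmed mean. That scale was kept, so changes are relative to the bulk of the array's signal. Such scaling cannot show a change that all transcripts share.

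From the table of 12488 probe sets, 66 controls were set aside. Of the other 12422, 10833 have 1 symbol, 396 several and 1193 none in GEO's platform annotation, which can be old. All 35 member gene IDs were found in the RefSeq gene table. Signals were analysed as log2(signal + 7.93), the offset being the 25th percentile of all values, so a fold is on that scale and understates the change of dim genes. Probe sets above 20.5, the 40th percentile, on at least 3 arrays were tested (7851). limma 3.58.1 in R 4.3.3 fitted all 9 arrays together (lmFit, eBayes with trend). Tests are two-sided, p-values are adjusted by Benjamini-Hochberg over the 7851 probe sets of each contrast, and intervals are 95%. The script was tested on simulated data. Single array measures were compared by exact permutation tests. Precision is limited by the number of arrays. Intervals are for the difference of group means, with an error based on the spread between these 9 cultures and moderated across probe sets.

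Named with values are all members past the threshold, the 8 with the smallest p in each direction of each contrast, members whose gene's probe sets disagree by over 0.3, those not tested, and, of the other lists, those that passed and up to 3 with the smallest p. The members and lists were chosen with earlier results of these data known. Start sites were read from RefSeq promoters (GRCm38.p6); 7 of the 35 genes (Rpl7, Rps29, Rps14, Rps20, Rpl8, Rps4l and Rpl32) were not matched. Alternatives covered the offset, the filter, the normalization, the spread model, array weights, the Gapdh ratio as a covariate, the arrays fitted, the replicate number and each array left out.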

Additional observations from a re-analysis of the deposited data

Results flagged for a closer look

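No ribosomal protein probe set met a rule for closer attention. The further lists covered genes of ribosome production, of translation and its control, and of the mitochondrial ribosome. In them, 7 probe sets had changes from untreated cells that differed between 120 and 30 min (limma test of that difference). They were 2 of 42 for translation factors and TOP mRNAs, 2 of 56 for biogenesis and 3 of 23 for the mTOR list. Of the 68 mitochondrial ones 0 differed, and of all 7851 tested probe sets 233 did (2.97%). The lists were chosen with earlier results of these data known. Myc differed by -1.61 on the log2 scale (adjusted p = 2.05e-05), Eif2ak4 by -1.21 (adjusted p = 0.00394) and Ddit4 by -0.75 (adjusted p = 0.0133). Etf1 differed by 1.09 on 96755_at (adjusted p = 0.0252) and by 0.71 on 96754_s_at (adjusted p = 0.0372), Rrp1b by 0.69 (adjusted p = 0.0125) and Rrs1 by 0.56 (adjusted p = 0.0312). When 1 array was left out, the call of Ddit4 ended in 2 of 9 cases (adjusted p up to 0.0713), of Rrp1b in 3 (up to 0.0657), of Rrs1 in 6 (up to 0.125), of Etf1 in 5 (96755_at) and 8 (96754_s_at), and those of Myc and Eif2ak4 in 0.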

How the results depend on the processing

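For the named ribosomal protein probe sets, 973 alternative values kept their direction and their side of the threshold, 12 reversed and 7 passed where the reported value did not; the cause was not tested. With array quality weights the members called were 2 lower at 30 min, 1 lower at 120 min, 1 higher from 30 to 120 min, and 2 by the F-test. Calls over all tested probe sets rose under this setting too, to 83 higher and 95 lower at 30 min. They were 220 and 202 at 120 min and 194 and 176 between the times. Among the members, leaving out 1 array gave 0 to 1 lower at 30 min, 0 to 1 lower at 120 min, 0 to 1 higher from 30 to 120 min and 0 to 1 by the F-test. The median change of the members then ran from -0.008 to 0.147 at 30 min, from 0.044 to 0.098 at 120 min, and from -0.056 to 0.091 between the times. The calls were Rps4x (100780_at) and Rps4l at 30 min, Rps4x (161654_r_at) at 120 min and Rps4x (100780_at) at 0.53 (adjusted p = 0.0213, weights) and 0.71 (without NECA 30 min replicate 2) from 30 to 120 min. The share of genes with a TOP tract moved from 39.3% to 17.9% and 60.7% with the window.

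Rps3a1 at 30 min became 0.11 with weights, 0.42 with the Gapdh covariate and ran from -0.50 to 0.10 when 1 array was left out (0.10 without NECA 30 min replicate 3), and Rps27 became -0.05 with that covariate. At 120 min the probe set named Rps24 became 0.02 when centred on the median, 0.10 with the covariate, and ran from -0.16 to 0.04 when 1 array was left out, above 0 without untreated replicate 2 or NECA 120 min replicate 1 or 3. Rps13 ran from -0.57 to 0.03 (without untreated replicate 1), and Rps28 (98085_f_at) was at 0.00 after quantile normalization. Rpl41 from 30 to 120 min was at 0.00 there too.

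The labels do not say whether a replicate number is shared between groups, and the values showed no clear pairing. Deviations of same-numbered arrays correlated from -0.172 to 0.23 over 9 pairs, and 1 of 9 arrays correlated best with its own number. With 3 arrays a group this cannot exclude a shared batch. With the replicate block 0 members passed in each comparison, with median changes of 0.046, 0.085 and 0.034, and all calls went from 28 to 27 higher at 30 min and from 144 to 136 higher and 121 to 111 lower at 120 min. When 1 array was left out, the other lists' calls ran from 0 to 10 higher from 30 to 120 min, up to 9 higher at 120 min (without NECA 30 min replicate 3), down to 1 lower at 120 min (without untreated replicate 1) and up to 1 lower at 30 min (without NECA 30 min replicate 2).

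Counts over all tested probe sets moved by over 1.5 times under a few settings. With array weights they went from 28 higher and 0 lower to 83 and 95 at 30 min, from 144 and 121 to 220 and 202 at 120 min, and from 106 higher to 194 between the times; with the Gapdh covariate to 5 and 0, and 94 and 70. Without NECA 30 min replicate 2 they were 39 and 46 at 30 min and 177 and 129 between the times. Leaving out another array gave as few as 15 higher at 30 min and 88 at 120 min (without untreated replicate 2), 60 lower at 120 min (without untreated replicate 1), and 64 higher between the times (without NECA 120 min replicate 2). With 3 arrays a group, changes of 1.5-fold are not bounded for several members, and dim probe sets lie near background.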
